A study of Mus musculus with 6 samples.

Results

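The genes examined here encode 9 proteins that shape, clear or uncouple mitochondria: Opa1, Mfn1 and Mfn2 for fusion, Dnm1l, Fis1 and Mff for fission, Pink1 and Bnip3 for mitophagy, and Ucp2 for uncoupling. They were found by their symbols among the 22298 genes of the deposited expression table, each matched 1 row, and all 9 were among the 12747 genes with enough reads to test. The samples came from MIN6, an insulin-secreting line grown from a mouse insulinoma and used as a model of the pancreatic β-cell, in 2 groups of 3, control and chronic epinephrine. Epinephrine acts on β-cells mainly through the α2A-adrenergic receptor, and the study asked how long exposure affects their function and fate. The labels name neither dose nor time. Epinephrine was used at 100 nM according to the methods, and the described scheme is an exposure of 3 days before a withdrawal of 2 days, without naming the day on which RNA was taken for sequencing, so it is not known whether the sequenced cells had gone through withdrawal. No allele or other agent is named for either group. The line is of tumour origin, and the labels do not say whether the 3 samples of a group were separate cultures. The study's methods state, for its data in general, that biological replicates were used. The p-values measure the spread between these samples, which may be technical if they were not separate cultures.

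Mitochondria form a network that is joined by fusion and cut by fission. MFN1 and MFN2 are GTPases that fuse the outer membranes, and OPA1 fuses the inner membranes and holds the cristae. FIS1 and MFF sit on the outer membrane, where MFF recruits DRP1, the product of Dnm1l, which constricts and cuts the organelle. PINK1, a kinase held on damaged mitochondria, and BNIP3, an outer membrane receptor, mark mitochondria for removal by autophagy. UCP2 is a carrier of the inner membrane that in β-cells has been linked to how tightly glucose oxidation is tied to ATP and so to insulin release.

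The study's designed primers for 3 of these genes are shown first, because they define which stretch of Opa1, Pink1 and Ucp2 transcripts its PCR assays read, whereas the sequencing values below cover whole genes. Primers are written 5′ to 3′. Capitals mark the bases past an exon junction in the Opa1 and Pink1 primers, and the mismatched base in that of Ucp2.
Opa1 forward: tcttcactgcagGTCCCAAAT
Opa1 reverse: tctgacacCTTCCTGTAATGCTTG
Pink1 forward: gtgggactcagATGGCTGTC
Pink1 reverse: cagcccaggtatcggctttg
Ucp2 forward: ctgggCaccatcctaacc
Ucp2 reverse: ggaagcggacctttacca
Ucp2 nearest site of the forward primer: ctgggTaccatcctaacc

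The Opa1 pair spans 142 bp of coding sequence (chr16:29588348-29602219, GRCm38), with the forward primer across exons 4 and 5 and the reverse primer across exons 6 and 7. Only 2 of the 5 coding Opa1 transcripts annotated in GENCODE hold both primers. The Pink1 pair spans 203 bp of coding sequence (chr4:138315670-138317315) and is found in 2 of 3 coding transcripts. The Ucp2 forward primer matched no annotated transcript exactly, and its nearest site differs from it by C6T, counted from 1 at the 5′ end of the primer. With that site the Ucp2 pair spans 247 bp of coding sequence (chr7:100497155-100498173) in 3 of 5 coding transcripts. No primer matched a transcript of another gene exactly, and near matches in other genes were not searched.

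Sequencing depth was similar in both groups. Total expected counts per sample ran from 15017065 to 17457583 in control cells and from 15256957 to 18127171 in epinephrine cells, so a limit of 3 counts corresponded to between 0.165 and 0.2 CPM (counts scaled to the normalized size of each library). All 9 genes lay far above it, with 525 counts for Mfn1 in control 3 as the lowest value. Control 1 stood apart from the other samples: the first principal component, with 44.6% of the variance, placed it at -38.9, far from controls 2 (-2.37) and 3 (-0.524), while the range of the epinephrine samples was 12.4 to 15.9. All 12 β-cell markers examined were detected and tested. Their summed level was 51742 CPM in control 1 and 65119.7 and 68639.9 CPM in the other controls, against 61891 to 63993 CPM after epinephrine, and 2 of the 12 were lower after epinephrine (FDR under 0.05, as were 0.612% of all genes tested). Of the 12 exocrine markers 8 were at 0 in every sample, including Prss1, Cpa1 and Pnlip. The 18 hepatocyte markers summed to 49.8, 134 and 284 CPM in the controls and to between 36.9 and 42.4 CPM after epinephrine, and 1 of the 6 that could be tested was lower. The 10 fibroblast markers summed to 1.77 to 24.7 and 1.98 to 19.9 CPM, and the 10 leukocyte markers to 1.03 to 3.37 and 3.31 to 4.43 CPM, in control and epinephrine samples respectively, with 1 of the 2 leukocyte markers that could be tested higher (2.02% of all genes tested were). The part of these markers and of control 1 in the fold changes below was not tested, other than by leaving out control 1.

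None of the 9 genes passed an FDR of 0.05 between the groups in all 6 samples (edgeR quasi-likelihood test with Benjamini-Hochberg adjustment), whereas 335 of the 12747 genes tested did (2.63%, with 2.02% higher and 0.612% lower). At an unadjusted p under 0.05, 1 of the 9 passed, Pink1, against 17.1% of all genes tested. DESeq2 also called 0 of the 9, where it called 5.23% of the genes it tested, 3.18% higher and 2.04% lower. The control and epinephrine samples did not overlap for 2 of the 9 genes (22.2%), lower for Pink1 and higher for Bnip3, beside 27.3% of all genes tested, 13.0% lower and 14.3% higher. The median log2 fold change of the 9 was 0.07, beside -0.00230 over all genes, with 6 genes above 0 and 3 below. Without control 1 that lean was lost, with a median of -0.00301, 4 genes above 0 and 5 below, and with a correction for transcript length and GC content the median was 0.02, with 6 above 0 and 3 below. Lower or higher RNA per cell and a changed share of cells that carry the RNA cannot be told apart in these bulk samples.

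**Figure D1:**
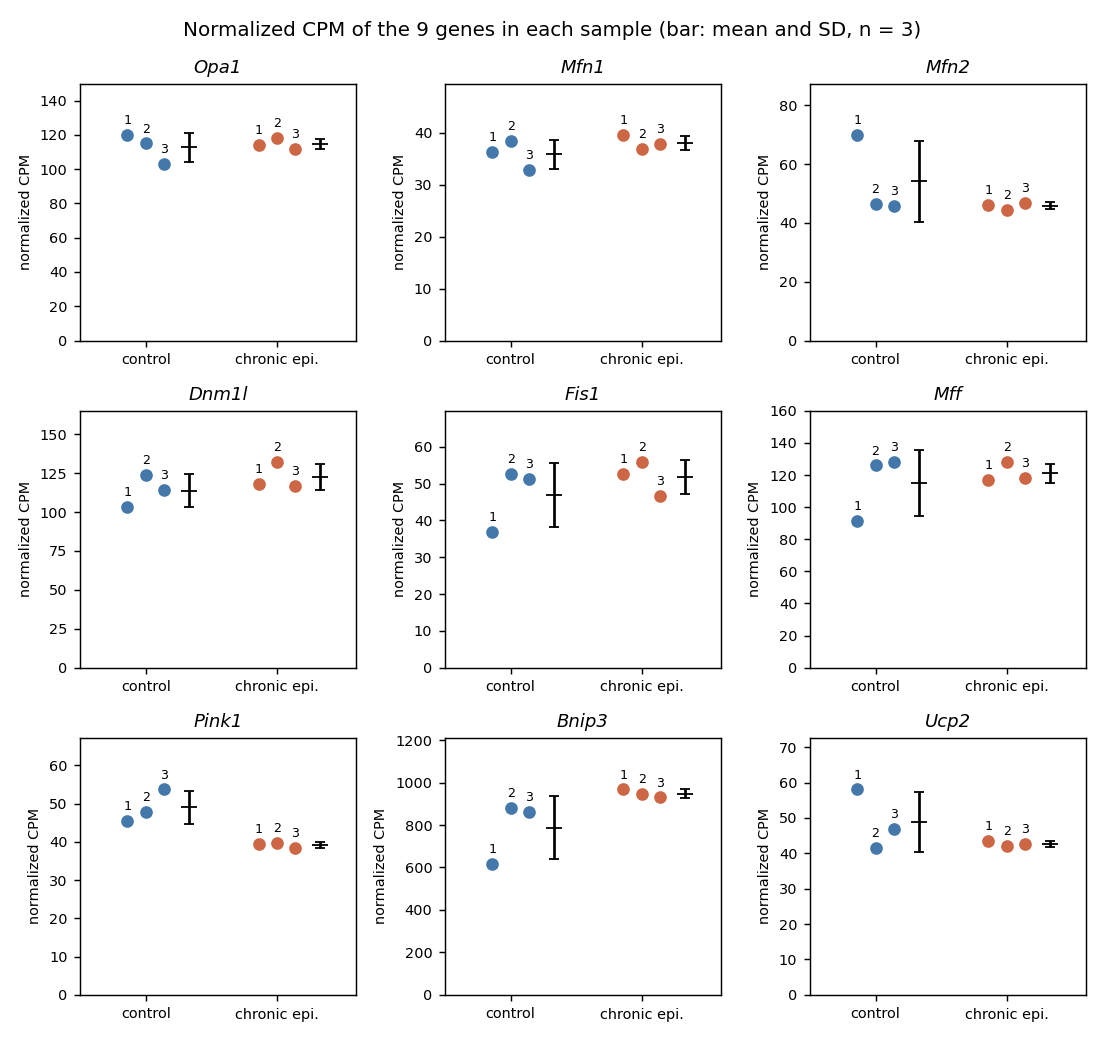
Normalized CPM (vertical axis, from 0) of each of the 9 genes in the 3 control samples (blue) and the 3 chronic epinephrine samples (orange), numbered by replicate, with the mean and SD of each group as a bar. Only Pink1 and Bnip3 have groups that do not overlap, and control 1 lies apart from every other sample for Mfn2, Fis1, Mff, Bnip3 and Ucp2.

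Pink1 had the lowest fold change of the 9. It encodes the kinase that tags mitochondria that have lost membrane potential (chr4:138313409-138326307, minus strand). Its level was 45.5, 47.7 and 53.7 CPM in controls 1, 2 and 3. After epinephrine it was 39.4, 39.8 and 38.3 CPM. Every epinephrine sample was therefore below every control, and the epinephrine samples lay close together. The controls took the same order for Pink1 as for the summed hepatocyte markers and the summed β-cell markers given above. The part of either list in this was not tested. The mean went from 49.0 ± 4.23 CPM (SD, n = 3) to 39.1 ± 0.778 CPM, a difference of -20.0% and a log2 fold change of -0.32 (SE 0.09, 95% interval -0.53 to -0.11). Its unadjusted p of 0.00706 ranked 787th of the 12747 genes and gave an FDR of 0.114 in edgeR. By exact permutation over samples (two-sided) p was 0.1, and no smaller value is possible with 3 samples against 3. Pink1 passed the threshold in 2 of the 17 alternative analyses, without control 1 (log2 fold change -0.37, FDR 2.30e-04) and with a correction of each sample for transcript length and GC content (-0.34, FDR 0.0445). Of all genes tested, 9.46% were called lower without control 1 and 4.94% with the correction. When the replicate number was added to that correction the FDR was 0.053. Over all 17 alternatives its log2 fold change stayed between -0.37 and -0.25 and its FDR between 2.30e-04 and 0.405. Reads shared with other genes concerned 3.03% of the 50-base windows of its exons, all with Gm27646 and Mir7019, which have no row in the table.

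Bnip3, whose product is an outer membrane mitophagy receptor known as a target of hypoxia-inducible factor (chr7:138890836-138909519, minus strand), was the highest expressed of the 9. Its level was 615, 881 and 862 CPM in controls 1, 2 and 3. After epinephrine it was 968, 947 and 929.9 CPM. The epinephrine samples were all above the controls, but control 1 lay much further below controls 2 and 3 than these lay below the epinephrine samples. The mean was 786 ± 148 CPM (SD, n = 3) in control cells and 948 ± 19.3 CPM in epinephrine cells. The log2 fold change of 0.27 (SE 0.14, 95% interval -0.04 to 0.58) had an FDR of 0.355 in edgeR, and by exact two-sided permutation p was 0.1. Without control 1 it was 0.12 (95% interval 0.03 to 0.22) with an FDR of 0.0642, and with the length and GC correction 0.14 with an FDR of 0.196. Of the 50-base windows of the Bnip3 exons 47.17% also occur in 6 other annotated genes (AC160336.1, Gm14506, Gm16439, Gm45507, Gm6532 and Gm9419). None of these has a row in the table, and how reads with several matches were assigned is not given in the sources used here, so the level of Bnip3 is uncertain to that extent.

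The promoters of Pink1 and Bnip3 are shown because these were the genes whose groups did not overlap, in opposite directions. Each is the 250 bases before the start of the RefSeq gene (GRCm38.p6) on the gene's strand, Pink1 at chr4:138326297-138326546 (minus strand) and Bnip3 at chr7:138909507-138909756 (minus strand). Capitals mark matches, on either strand, to any of 5 motifs: ACGTG, the core of the hypoxia response element, TGACG, the core of the cAMP response element, TGATGNAA, the C/EBP-ATF element bound by ATF4, TGACNNNGC, the antioxidant response element bound by NRF2, and CCAAT.
Pink1: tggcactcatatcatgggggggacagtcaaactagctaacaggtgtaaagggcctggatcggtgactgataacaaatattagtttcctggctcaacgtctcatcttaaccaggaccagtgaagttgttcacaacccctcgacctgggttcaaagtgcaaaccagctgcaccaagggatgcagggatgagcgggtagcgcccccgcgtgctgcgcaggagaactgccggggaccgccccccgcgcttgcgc
Bnip3: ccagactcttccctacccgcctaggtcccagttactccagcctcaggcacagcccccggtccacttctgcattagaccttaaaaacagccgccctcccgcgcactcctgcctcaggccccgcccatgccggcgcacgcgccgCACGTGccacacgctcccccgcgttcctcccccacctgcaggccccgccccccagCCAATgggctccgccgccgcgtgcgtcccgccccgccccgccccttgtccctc

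The Pink1 window (57.2% GC) holds none of the 5 motifs. The Bnip3 window (72.4% GC) holds CACGTG, which reads as ACGTG on both strands and so counts as 2 overlapping matches, and 1 CCAAT. Among 32851 mouse promoters of the same length, ACGTG occurs in 16.6%, TGACG in 17.8%, TGATGNAA in 3.5%, TGACNNNGC in 10.2% and CCAAT in 33.8%. These are matches of letters in the window, and no binding was measured.

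The fusion genes showed no difference beyond the spread between samples. Opa1 (chr16:29579334-29654884, plus strand) stood at 119.9, 115 and 103 CPM in controls 1, 2 and 3 and at 114, 118 and 112 CPM after epinephrine. The epinephrine samples lay inside the range of the controls. Its log2 fold change was 0.02 (SE 0.09, FDR 0.917), and the 95% interval covers 0.89-fold to 1.17-fold. Mfn1 (chr3:32529465-32579239, plus strand) stood at 36.3, 38.4 and 32.9 CPM in the controls and at 39.6, 36.9 and 37.9 CPM after epinephrine, with overlapping groups and a log2 fold change of 0.09 (SE 0.09, FDR 0.666, interval 0.92-fold to 1.23-fold). Mfn2 (chr4:147873599-147904704, minus strand), whose product also tethers mitochondria to the endoplasmic reticulum, stood at 69.9, 46.6 and 45.9 CPM in the controls. After epinephrine it was 46.1, 44.5 and 46.8 CPM. Control 1 was alone above the 5 other samples, which lay together. The log2 fold change of Mfn2 was -0.24 (SE 0.16, FDR 0.492) with all samples and -0.01 (SE 0.07, FDR 0.912) without control 1, where its interval ran from 0.90-fold to 1.09-fold.

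The fission genes gave a similar picture. Dnm1l (chr16:16312230-16358959, minus strand), which encodes the GTPase DRP1, stood at 103, 124 and 114 CPM in controls 1, 2 and 3 and at 118, 132 and 117 CPM after epinephrine. Its groups overlapped, and the log2 fold change was 0.11 (SE 0.10, FDR 0.627, interval 0.92-fold to 1.26-fold). Leaving out 1 sample moved the Dnm1l value between 0.04, without control 1, and 0.17, without control 2. Fis1 (chr5:136953275-136966234, plus strand) stood at 36.8, 52.5 and 51.2 CPM in the controls and at 52.6, 55.8 and 46.7 CPM after epinephrine. Control 1 was the lowest of the 6. The log2 fold change of Fis1 was 0.14 (SE 0.14, FDR 0.665) with all samples and -0.00301 without control 1. Mff (chr1:82724890-82752394, plus strand), the receptor for DRP1, stood at 91.5, 126 and 128 CPM in the controls and at 117, 128 and 118 CPM after epinephrine. Again control 1 was the lowest, and the log2 fold change of 0.07 (SE 0.13, FDR 0.823) became -0.07 (FDR 0.432) without it. The 95% intervals with all samples ran from 0.88-fold to 1.38-fold for Fis1 and from 0.85-fold to 1.30-fold for Mff. Without control 1 they narrowed to 0.90-fold to 1.10-fold and 0.88-fold to 1.03-fold.

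Ucp2 (chr7:100493337-100502020, plus strand) stood at 58.1, 41.5 and 47.0 CPM in controls 1, 2 and 3. After epinephrine it was 43.6, 42.0 and 42.6 CPM. The epinephrine samples lay within the range of the controls, just above control 2, and control 1 was the highest of the 6. The mean was 48.9 ± 8.45 CPM (SD, n = 3) in control cells and 42.8 ± 0.820 CPM in epinephrine cells. The log2 fold change was -0.19 (SE 0.12, FDR 0.478, interval 0.72-fold to 1.07-fold) with all samples and -0.05 (SE 0.07, FDR 0.689, interval 0.88-fold to 1.07-fold) without control 1. Ucp2 shares 3.53% of its exon windows with Dnajb13 on the other strand, whose count reached at most 9.

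**Figure D2:**
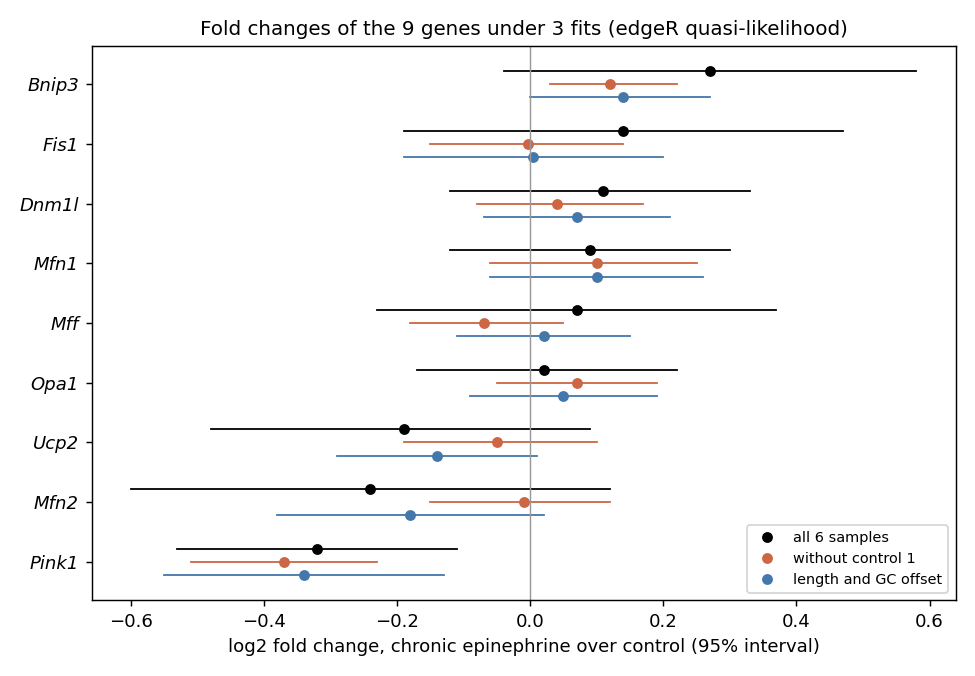
Log2 fold change, chronic epinephrine over control (horizontal axis), of each of the 9 genes with its 95% interval in edgeR: all 6 samples (black), without control 1 (orange), and with a correction for transcript length and GC content (blue). The Pink1 interval lies below 0 in all 3 fits, and that of Bnip3 lies above 0 without control 1. The values of Fis1, Mfn2, Dnm1l, Ucp2 and Bnip3 lie nearer 0 without control 1.

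Control 1 was compared with the mean of controls 2 and 3 by transcript length, as implied by each gene's count and FPKM (reads scaled to the transcript length and the sample total). Over all genes tested its median log2 difference was -0.52 for the 814 genes under 1 kb, -0.19 for the 3054 genes of 1 to 2 kb, 0.02 for the 5349 genes of 2 to 4 kb and 0.21 for the 3530 longer genes. Short transcripts were thus low and long ones high in that sample. Fis1 (0.805 kb), Mff (1.35 kb) and Bnip3 (1.58 kb) differed by -0.49, -0.47 and -0.50. Fis1 was near the median of its class, whereas Mff and Bnip3 lay well below the -0.19 of theirs. Mfn2 (4.10 kb) differed by 0.59, at the 93.4th percentile of all genes, and Opa1 (5.24 kb) by 0.13. Ucp2 (2.01 kb) differed by 0.39 and so stood above most genes of its length, while Pink1 (2.29 kb), Dnm1l (3.78 kb) and Mfn1 (3.60 kb) differed by -0.15, -0.21 and 0.02. The fold changes over all genes followed the same classes, with medians of 0.17 under 1 kb and -0.08 above 4 kb, and of 0.03 and -0.00236 without control 1. What lies behind this pattern was not tested.

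**Figure D3:**
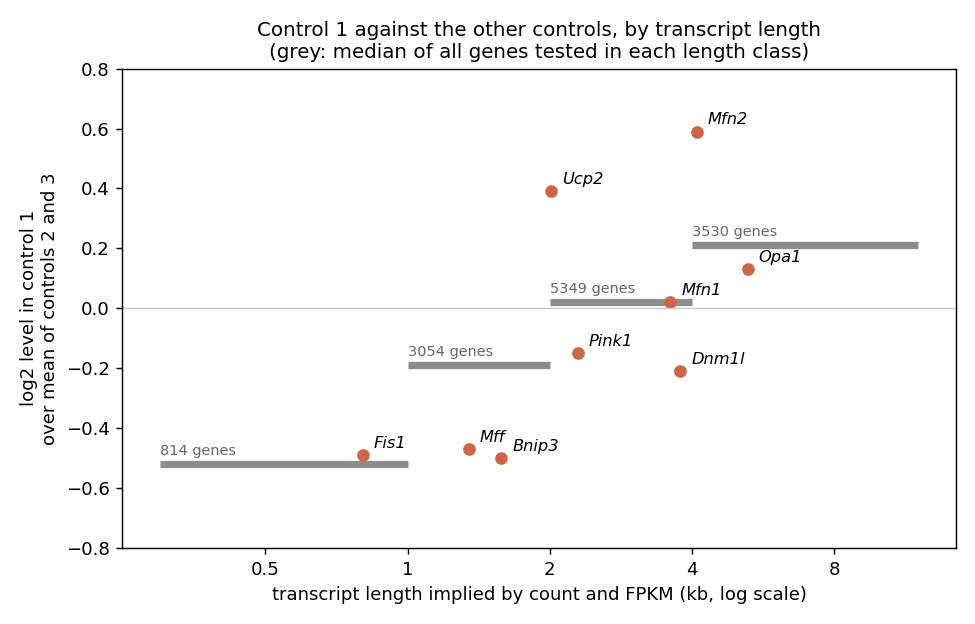
Log2 difference of control 1 from the mean of controls 2 and 3 (vertical axis) against implied transcript length (horizontal axis, kb, log scale) for the 9 genes (orange points), with the median of all genes tested in each length class (grey bars). The shortest genes, Fis1, Mff and Bnip3, lie near -0.5. Mff and Bnip3 lie below the median of their class, and Mfn2 and Ucp2 lie above that of theirs.

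The implied length, by which the deposited FPKM values were scaled, was also compared between samples. It varied by 0.983% between the lowest and the highest sample for Fis1 and by 3.22% to 6.16% for Dnm1l, Bnip3, Mfn2, Ucp2, Mff, Opa1 and Pink1, with overlapping groups. Mfn1 varied most, by 10.6%. Its implied length was 3.32, 3.59 and 3.57 kb in controls 1, 2 and 3 and 3.62, 3.67 and 3.60 kb after epinephrine. All epinephrine samples were above the controls, but the gap from control 2 to the third epinephrine sample was small. This was not tested, and the share of all genes with implied lengths apart was not computed. FPKM of Mfn1 was accordingly equal between groups, at 10.4 ± 1.09 and 10.4 ± 0.486 (SD, n = 3).

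Levels per transcript length differed widely among the 9 genes. Mean FPKM over the 6 samples was 549 for Bnip3, at the 99.3rd percentile of the genes tested, 87.4 for Mff and 61.0 for Fis1. These 3 were separated from each other and from the rest in every sample. Below them came Dnm1l (31.2), Ucp2 (22.9), Opa1 (21.8), Pink1 (19.3), Mfn2 (12.2) and Mfn1 (10.4), the last at the 50.2nd percentile. Within these 6 the ranges of neighbours overlapped, so their order was not fixed beyond the spread between samples. Pink1 was above Mfn2, and Mfn2 above Mfn1, in all 6 samples when compared within a sample. On the other scale, mean CPM per kb of all annotated exons of a gene, Bnip3 was again highest at 382, but Mff was at 12.1, below Fis1 (28.7), Dnm1l (22.6), Pink1 (16.5) and Opa1 (14.4). The annotated exons of Mff add up to 9.76 kb, against 1.35 kb implied by its FPKM, so the rank of Mff rests on which transcripts are counted. Ucp2 moved likewise, from above Opa1, Pink1 and Mfn2 on the FPKM scale to 6.56, below Mfn2 (9.64) and just above Mfn1 (6.05), with 6.99 kb of annotated exons against 2.01 kb implied.

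**Figure D4:**
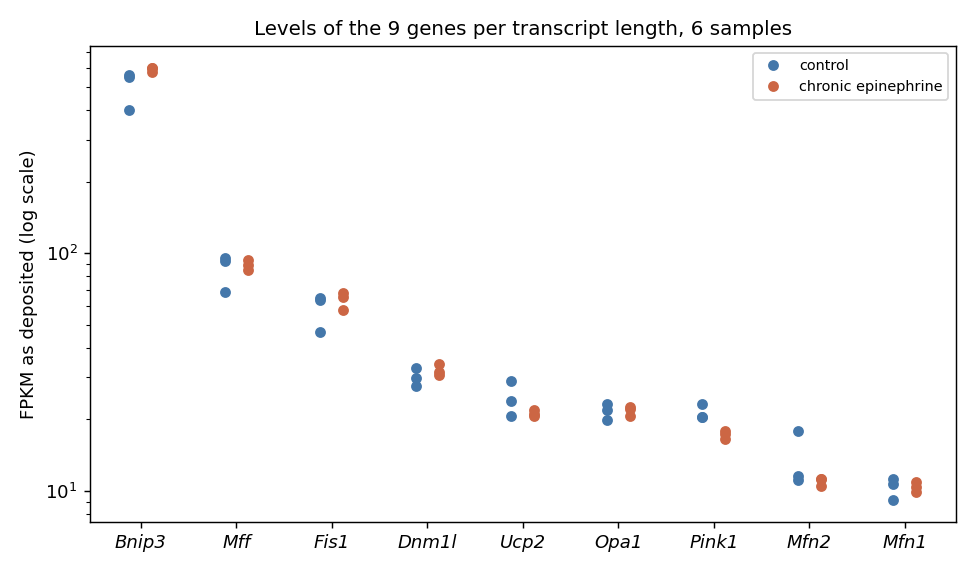
Deposited FPKM (vertical axis, log scale) of the 9 genes in the 3 control (blue) and 3 chronic epinephrine (orange) samples, ordered by mean level. Bnip3, Mff and Fis1 lie apart from each other and from the 6 genes below, whose ranges overlap with their neighbours.

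Ratios of FPKM within a sample were computed between genes of related or opposing roles and were not tested. Mfn2 over Mfn1 was 1.59, 1.04 and 1.25 in controls 1, 2 and 3 and 1.03, 1.06 and 1.08 after epinephrine. Opa1 over Dnm1l, inner membrane fusion against fission, was 0.840, 0.668 and 0.663 in the controls and 0.709, 0.649 and 0.675 after epinephrine. Mff over Fis1 was 1.47, 1.43 and 1.50 in the controls and 1.37, 1.37 and 1.48 after epinephrine. These ratios overlapped between groups. Bnip3 over Pink1 was 19.5, 27.3 and 23.8 in the controls and 33.8, 34.7 and 35.0 after epinephrine, and here the groups did not overlap, as follows from the values of both genes above.

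The wider lists held 83 genes of fusion, cristae, fission, mitophagy, uncoupling and transport, including the 9. Of these 79 were tested, and Pld6, Ucp1, Ucp3 and Slc25a31 had too few reads. None passed an FDR of 0.05 in either direction in edgeR with all samples. At an unadjusted p under 0.05, 4 of 79 passed (5.06%, against 17.1% of all genes tested), and for 12 of 79 the groups did not overlap (15.2%, against 27.3%), 6 higher and 6 lower. The fold change was above 0 for 52 and below 0 for 27, with a median of 0.05 beside -0.00230 over all genes. Without control 1 these were 43 and 36, with a median of 0.01. DESeq2 called 1 of them, Sqstm1, as higher, beside 5.23% of the genes it tested (3.18% higher). Without control 1, 9 of the 79 were called (11.4%, against 21.6% of the genes tested then, 12.1% higher and 9.46% lower), Sqstm1, Opa3, Phb2, Chchd6, Vcp and Trak1 higher and Pink1, Fundc1 and Tax1bp1 lower. With the length and GC correction 3 were called, Sqstm1 higher and Pink1 and Snph lower (the calls of Pink1 and Snph were lost when the replicate number was added), beside 10.4% of all genes tested, 5.50% higher and 4.94% lower.

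In the mitophagy list 11 of 23 tested genes were above 0 and 12 below. Sqstm1, which encodes the autophagy receptor p62, had the highest fold change of the list. Its level was 378, 318 and 328 CPM in controls 1, 2 and 3 and 439.9, 427 and 438 CPM after epinephrine. The epinephrine samples were all above the controls and close together. The log2 fold change was 0.35 (SE 0.09, p 0.00457, FDR 0.0936) in edgeR with all samples, 0.34 (FDR 0.0182) in DESeq2, 0.33 (FDR 0.00797) with the length and GC correction and 0.43 (FDR 1.42e-07) without control 1. Sqstm1 passed an FDR of 0.05 in 4 of the 17 alternatives, these and the correction with the replicate number added. Ulk1, the kinase that starts autophagy, had the lowest, at 78.7, 46.7 and 45.4 CPM in the controls and 38.1, 44.5 and 44.3 CPM after epinephrine. Control 1 was again far above the rest, and the log2 fold change of -0.43 (SE 0.20, FDR 0.334) was -0.12 (FDR 0.244) without it. Fundc1, an outer membrane mitophagy receptor, and Tax1bp1, an autophagy receptor, were named after their values were seen. Fundc1 had log2 fold changes of -0.07 (FDR 0.845) with all samples and -0.23 (FDR 0.0198) without control 1. For Tax1bp1 these were -0.05 (FDR 0.854) and -0.18 (FDR 0.00966). Vcp, an ATPase that extracts ubiquitinated proteins, was likewise picked afterwards. It gave -8.87e-04 (FDR 0.998) with all samples and 0.14 (FDR 0.0423) without control 1. With the length and GC correction Vcp was at -0.01 (FDR 0.968).

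In the fusion list 13 of 16 tested genes were above 0 and 3 below, with a median of 0.07 that was 0.02 without control 1. Opa3, a mitochondrial membrane protein named for inherited optic atrophy, had the highest value, 0.15 (SE 0.10, FDR 0.475), and 0.23 (FDR 0.0232) without control 1. Mfn2 had the lowest. Phb2, a prohibitin that scaffolds the inner membrane and was named after its values were seen, gave 0.14 (FDR 0.454) and 0.19 (FDR 0.0278) without control 1. In the cristae list, which holds the MICOS complex and its partners, 9 of 11 genes were above 0 and 2 below, with a median of 0.05 that was -0.02 without control 1. Chchd6, a MICOS subunit, was highest, at 11.3, 13.1 and 15.3 CPM in the controls and 15.9, 17.3 and 19.2 CPM after epinephrine. Its groups did not overlap, and the log2 fold change was 0.40 (SE 0.14, FDR 0.189), or 0.30 (FDR 0.0472) without control 1. Apool, another MICOS subunit, was lowest at -0.07 (SE 0.18, FDR 0.861). It gave -0.25 (FDR 0.157) without control 1 and -0.16 (FDR 0.378) with the length and GC correction.

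In the fission list 10 of 16 tested genes were above 0 and 6 below, none with groups apart. Its extremes were Mtfr2, a fission regulator, at 0.16 (SE 0.21, FDR 0.748) and Mief2, another DRP1 receptor, at -0.19 (SE 0.15, FDR 0.563). Without control 1 Mtfr2 turned to -0.04 (FDR 0.884), while Mief2 was again at -0.19 (FDR 0.411). In the uncoupling list 4 of 6 tested genes were above 0 and 2 below, with a median of 0.06 that turned to -0.05 without control 1, where 2 were above 0, and to -0.06 with the length and GC correction. Slc25a27, also called UCP4, was highest at 0.10 (SE 0.18, FDR 0.830), or 0.04 (FDR 0.886) without control 1, and Ucp2 was lowest. The transport list, which holds the proteins that move or anchor mitochondria, had 5 of 7 above 0. Armcx3 was highest at 0.11 (SE 0.10, FDR 0.619), or 0.03 (FDR 0.761) without control 1. Snph, which anchors mitochondria to microtubules in axons, was lowest at -0.31 (SE 0.13, FDR 0.273), with 90.4, 65.6 and 67.5 CPM in the controls and 59.0, 57.7 and 63.4 CPM after epinephrine. Its groups did not overlap, and it gave -0.21 (FDR 0.0489) with the length and GC correction and -0.15 (FDR 0.0866) without control 1. Trak1, the adaptor that joins mitochondria to motors, was named after its values were seen and gave 0.03 (FDR 0.927) with all samples and 0.22 (FDR 0.00392) without control 1.

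**Figure D5:**
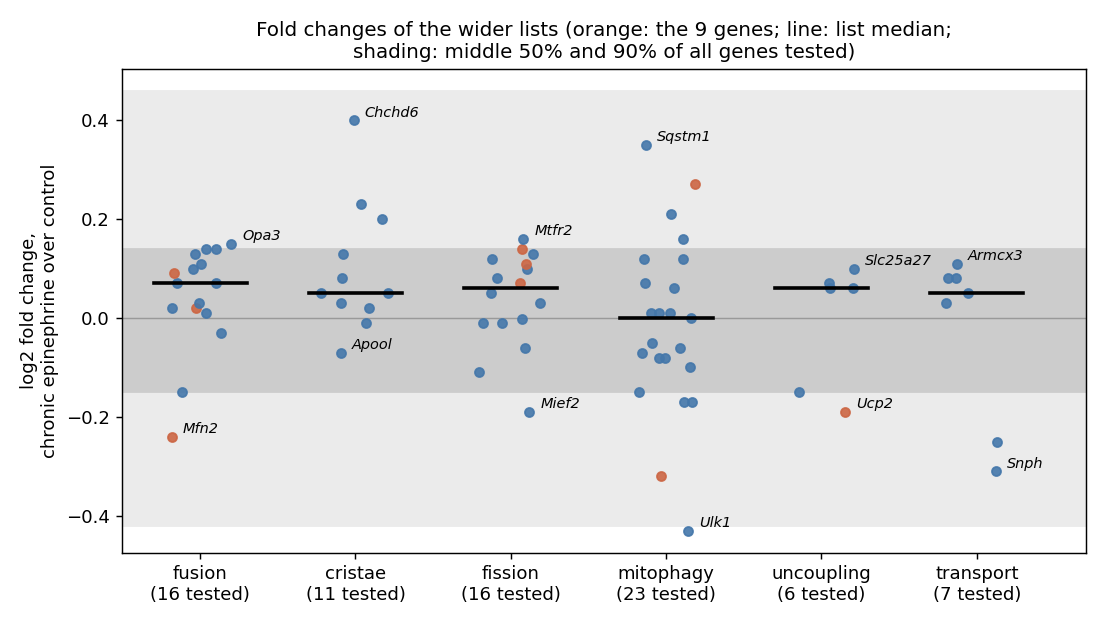
Log2 fold change, chronic epinephrine over control (vertical axis), of the 79 tested genes of the 6 wider lists, with the 9 genes in orange, the list median as a line, and the middle 50% and 90% of all genes tested as shading. All points but Ulk1, at -0.43, lie inside the 90% range of -0.42 to 0.46.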

How the data were processed

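Total RNA of 6 MIN6 samples was sequenced on an Illumina Novaseq instrument. The authors' deposited table gives, per gene and sample, an expected count, not normalized between samples, and an FPKM value, scaled to transcript length and sample total. The submitters' processing notes name the build GRCm38, and aligner and counter are not given in the sources used here. No value column was left without a sample (0 unmapped). Of 22298 identifiers, 22255 were found in GENCODE vM21, used for positions and shared sequence, and promoters came from RefSeq (GRCm38.p6). Expected counts were rounded, filtered by filterByExpr, scaled by TMM and tested with edgeR 4.0.16 (quasi-likelihood, R 4.3.3), with no covariate and Benjamini-Hochberg adjustment (FDR) over 12747 genes. The fit was also run on simulated counts, in which no sample was made to deviate as control 1 did. The outcome of that run is not reported here. Single genes were also compared by an exact two-sided permutation test. Alternatives comprised DESeq2 1.42.0, limma 3.58.1 on log2(FPKM + 1) or log2(FPKM + 0.1), other scalings and filters, a replicate block, a length and GC correction (spline, 4 degrees of freedom) and leaving out each sample. Named genes were the 9, any list gene past an FDR of 0.05, and the highest and lowest of each list. The genes and lists were chosen with earlier results of these data known.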

Additional observations from a re-analysis of the deposited data

How the results depend on the processing

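The number of genes past an FDR of 0.05 (335) was 734 in DESeq2, 1331 with the length and GC correction and 47 to 2798 when 1 sample was left out, the highest without control 1. With the additional 2-fold threshold (92) it was 43 in limma on log2(FPKM + 1) and 33 to 211 when 1 sample was left out. With the replicate number as a block the count at an FDR of 0.05 alone was 178, and 1135 with block and correction together. Same-numbered samples did not deviate together (correlations 0.0502, 0.0677 and -0.0488, and 2 of 6 samples correlated best with their own number). The labels state no pairing, and with 3 samples a group these values cannot exclude one. The log2 fold change of Opa1 was -0.00451 with library size scaling only and -0.04 to 0.07 when 1 sample was left out. When 1 sample was left out, that of Fis1 ran from -0.00301 to 0.23 and that of Mff from -0.07 to 0.15, both lowest without control 1. Pink1 (-0.32) passed the threshold with the correction (-0.34) and without control 1, in a leave-one-out range of -0.37 to -0.25, and no other of the 9 genes passed in any of the 17 alternatives. In the wider lists 1 gene was called higher in DESeq2, 1 with the correction and 1 with correction and block, against 0 to 6 when 1 sample was left out. Lower calls were 2 with the correction, 0 with correction and block, and 0 to 3 when 1 sample was left out. For all listed genes the median (0.05) was 0.02 with the correction and 0.01 to 0.05 over the same omissions. Per kb of annotated exons the mean levels were 382 CPM for Bnip3, 28.7 for Fis1, 22.6 for Dnm1l, 16.5 for Pink1, 14.4 for Opa1, 12.1 for Mff, 6.56 for Ucp2 and 6.05 for Mfn1. The fits that left out 1 sample also had fewer samples. The cause of these shifts was not tested. With 3 samples a group, the intervals do not exclude differences as large as 0.66-fold for Mfn2 or 1.50-fold for Bnip3.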
